A study of Mus musculus with 18 samples.

Results

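Whole-heart RNA of mouse embryos at E10.5 was compared with that at E9.5, gene by gene, where E stands for the embryonic day. The comparison takes 7 of the 18 libraries of the series, chosen by their labels: 3 from E9.5 hearts and 4 from E10.5 hearts. All embryos were wild-type C57BL/6, with male and female hearts pooled, and no treatment, transgene or deletion is recorded for either stage. The other 11 libraries (E12.5, E14.5 and E16.5) entered the filter on low counts, the scaling and the shared estimate of spread between replicates. They also entered the models that compare kinds of library, described below. Nothing in the labels says that replicates are different litters; the p-values rest on how far these samples lie apart, and that may be technical in part.

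At these stages the heart is a looped tube. Its muscle layer is lined by endocardium, and progenitors of the second heart field in the adjoining mesoderm add new muscle at both ends. The epicardium, a mesothelial sheet that arises from the proepicardium at the venous pole, spreads over the heart surface, and parts of it and of the endocardial cushions become mesenchyme through epithelial to mesenchymal transition. In whole-heart RNA, fewer cells of a type and less RNA per cell cannot be told apart, and this holds for every level given here.

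The 3 E9.5 libraries held 32968212, 30950152 and 30963883 reads counted in genes, and the 4 E10.5 libraries between 37060489 and 44802875. A floor of 3 reads was therefore 0.067 to 0.0969 CPM (reads per 1000000 reads counted), which covers counting error only. Heart muscle markers were abundant in all 7 libraries, where 30 sarcomere genes together made up 37020 to 49970 CPM. The libraries did not all have the same makeup. The summed level of 8 transcripts of activated macrophage-type cells (Atp6v0d2, Cd74, Chil3, Gpnmb, H2-Aa, Itgax, Mmp12 and Mmp13) was 646 CPM in E9.5 replicate 1, 462 in E10.5 replicate 3 and 550 in E10.5 replicate 4. In the other 4 libraries the same sum lay between 0.582 and 0.84 CPM. Libraries on the 2 sides of this gap are called high and low below, so each stage holds both kinds: 1 high and 2 low at E9.5, 2 high and 2 low at E10.5. Across all 18 libraries, 4112 genes differed between the high and the low kind in a model that also held stage. Of the libraries of later stages, only E12.5 replicate 4 was low. Results are given over all 7 libraries. Medians of many lists are also given within each kind, and the named calls that did not pass within one kind are counted at the end. Replicate 3 of E9.5 also stood out: of the 3204 genes that passed the test with no overlap between stages, it was the E9.5 library farthest from E10.5 for 1751 (54.7%), against 1072 for replicate 1 and 381 for replicate 2. The part of these differences between libraries in the results below was not tested beyond the values given.

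Of 18885 genes tested with edgeR's quasi-likelihood method, 3446 (18.2%) passed a Benjamini-Hochberg adjusted p of 0.05. Of these, 2007 were higher at E10.5 (10.6% of genes tested) and 1439 were lower (7.62%). A change of at least 2-fold was reached by 826 (4.37%). The levels of the 7 libraries did not overlap between stages for 5281 genes (28.0%). The median log2 fold change of all genes was -0.00374. These percentages are the background for every count of a gene list below. A list's median is the median log2 fold change of its tested members. The calls depended on E9.5 replicate 3: without it, 1456 genes were higher and 804 lower, and the lower count was 935 without E10.5 replicate 1 and 924 without E10.5 replicate 2. Within the low libraries 3584 were higher and 2873 lower, and within the high libraries, where E9.5 is 1 library, 981 and 234. Fold changes also moved with transcript length. The median log2 fold change rose from -0.0724 in the shortest to 0.0645 in the longest of 5 equal groups of genes by exon length over all 7 libraries, from -0.0638 to 0.0926 in the low libraries, and from -0.128 to 0.171 in the high libraries. Differences of that size in a list's median are near this shift, and its part in them was not tested.

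**Figure D1:**
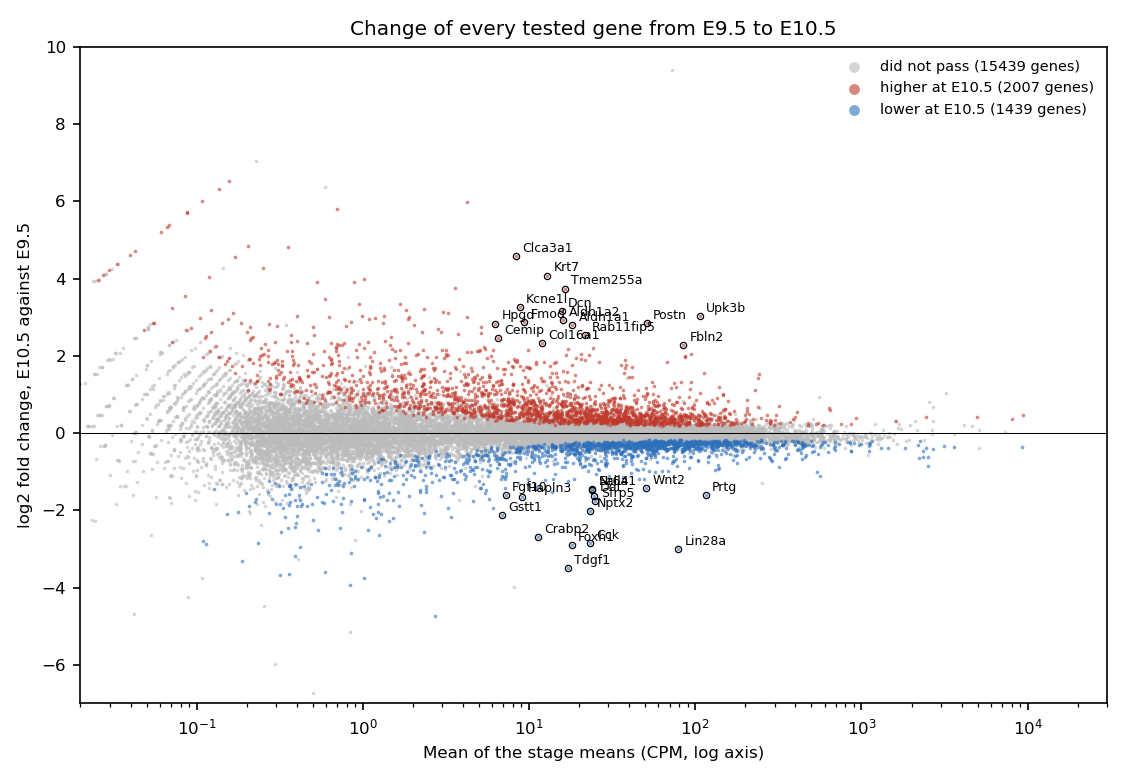
Mean level (CPM, log axis) against log2 fold change from E9.5 to E10.5 for every gene tested, with the 15 largest rises and 15 largest falls that met the rule for named genes circled. The 2007 higher and 1439 lower genes lie around a median near 0, and the circled genes reach from Clca3a1 at 4.58 to Tdgf1 at -3.49.

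The 15 largest rises of well-measured coding genes included 2 mesothelial genes (Krt7 and Upk3b) and 5 of extracellular matrix (Dcn, Fmod, Postn, Col16a1 and Fbln2). Clca3a1, of a family of regulators of calcium-activated chloride channels, rose from 0.651 ± 0.574 CPM to 15.95 ± 4.22 CPM (mean ± SD, n = 3 and n = 4), a log2 fold change of 4.58 ± 0.37 (SE; adjusted p = 9.37e-07). The others were Tmem255a, Kcne1l, Aldh1a2, Hpgd, Aldh1a1, Rab11fip5 and Cemip, and the 14 below Clca3a1 had log2 fold changes from 4.08 down to 2.28. Among them Hpgd, the enzyme that inactivates prostaglandins, rose from 1.53 ± 0.438 CPM to 10.98 ± 2.29 CPM, and Cemip, a protein of hyaluronan breakdown, from 1.98 ± 1.15 CPM to 11.01 ± 0.919 CPM. The 15 largest falls were those of Tdgf1, Lin28a, Foxh1, Cck, Crabp2, Gstt1, Nptx2, Sfrp5, Hapln3, Ddt, Fgf10, Prtg, Nr6a1, Sall4 and Wnt2, from -3.49 to -1.43. Cck, which encodes the peptide cholecystokinin, fell from 41.02 ± 15.7 CPM to 5.68 ± 2.15 CPM. Prtg, an immunoglobulin-family receptor of early mesoderm and neural tissue, fell from 174 ± 53.2 CPM to 57.1 ± 3.97 CPM, and Nr6a1, an orphan nuclear receptor of early embryos, from 35.3 ± 12.8 CPM to 12.8 ± 0.496 CPM.

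**Figure D2:**
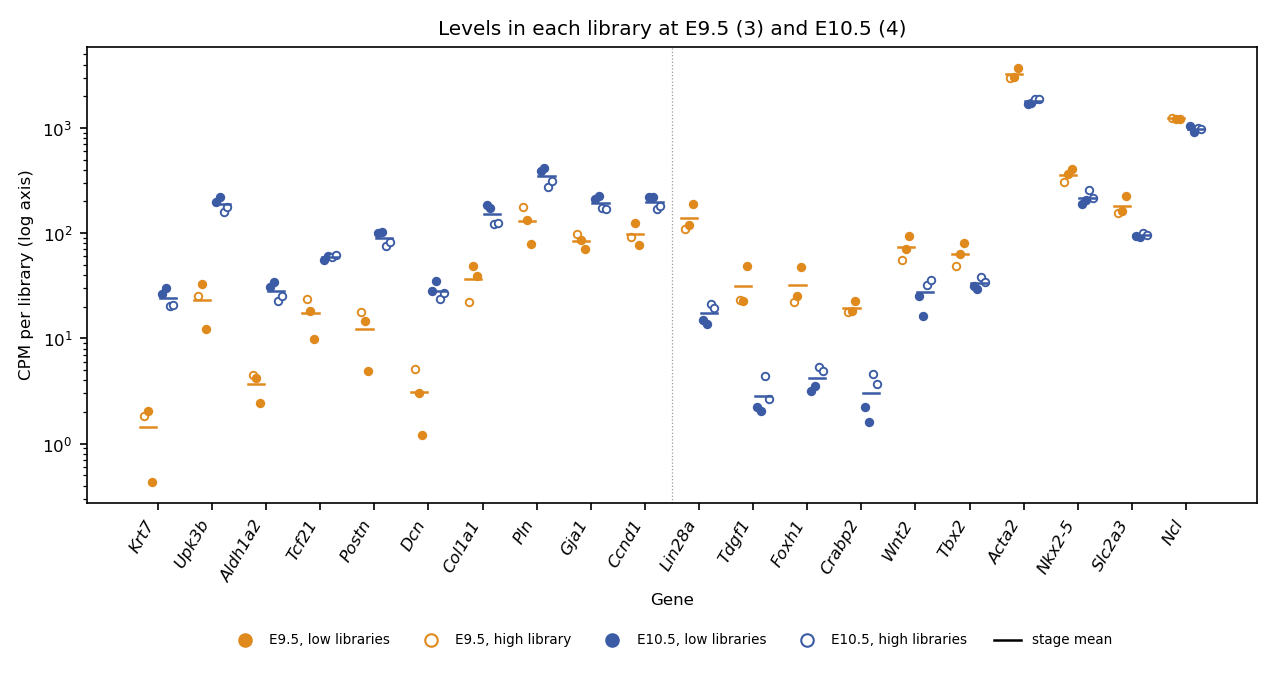
CPM (log axis) of 20 genes in each library, with E9.5 in orange, E10.5 in blue, filled points for low and open points for high libraries, and a line at each stage mean. For the 10 genes on the left all 4 E10.5 libraries lie above all 3 E9.5 libraries, and for the 10 on the right all lie below.

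Genes of the Nodal pathway were among the largest falls. Nodal signals act through the co-receptors Tdgf1 (Cripto) and Cfc1 (Cryptic) and the Smad partner Foxh1, and set the left-right axis before and during heart looping. Tdgf1 (chr9:110939603-110946158, GRCm38) measured 23.4, 22.5 and 48.7 CPM at E9.5 and 2.21, 2.02, 4.34 and 2.67 CPM at E10.5. All E9.5 libraries lay above all E10.5 libraries, with the highest in E9.5 replicate 3, and the log2 fold change was -3.49 ± 0.46 (adjusted p = 6.89e-05). Foxh1 (chr15:76668225-76669948) measured 22.4, 25.04 and 48.03 CPM at E9.5 and 3.18, 3.56, 5.35 and 4.88 CPM at E10.5. The stages again did not overlap, and Foxh1 fell by 2.91 ± 0.29 on the log2 scale (adjusted p = 2.29e-06). Cfc1 fell from 2.16 ± 0.729 CPM to 0.731 ± 0.181 CPM (adjusted p = 0.00196). Of the 10 Nodal and left-right genes tested, 4 were lower and 0 higher, and the list's median was -0.24 over all 7 libraries, -0.25 in the low and -0.10 in the high libraries.

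Genes of pluripotent and other undifferentiated cells were among the largest falls too. Lin28a (chr4:134003330-134018841), an RNA-binding protein that blocks the processing of let-7 microRNAs, measured 111, 119 and 191 CPM at E9.5 and 15.04, 13.8, 21.4 and 19.6 CPM at E10.5. All E9.5 libraries lay far above all E10.5 libraries, and the log2 fold change was -3.005 ± 0.26 (adjusted p = 1.56e-06), with -3.40 in the low and -2.43 in the high libraries. Sall4, a zinc finger factor of stem cells, fell from 34.97 ± 6.96 CPM to 12.7 ± 1.103 CPM (adjusted p = 3.81e-06). Trim71, an RNA-binding repressor that let-7 targets, fell from 55.2 ± 9.004 CPM to 27.2 ± 1.33 CPM, and the MAP kinase phosphatase Dusp9 from 69.7 ± 11.6 CPM to 35.1 ± 2.63 CPM. The chromatin proteins Hmga1 and Hmga2 fell by less, with log2 fold changes of -0.63 and -0.38. Of 16 pluripotency and oncofetal genes tested, 9 were lower and 0 higher, with a median of -0.40 over all 7 libraries, -0.44 in the low and -0.37 in the high libraries.

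Second heart field genes were more often lower than higher. Of 21 tested, 9 were lower and 2 higher, and the median was -0.59 over all 7 libraries, -0.72 in the low and -0.0925 in the high libraries. Fgf10, a secreted growth factor of the progenitors, measured 8.48, 9.76 and 14.4 CPM at E9.5 and 3.87, 3.34, 3.603 and 3.41 CPM at E10.5. Its stages did not overlap, and it fell by 1.61 ± 0.21 on the log2 scale (adjusted p = 2.58e-05). Fgf8, another ligand of these cells, measured 3.95, 5.19 and 7.53 CPM at E9.5 and 0.729, 1.03, 2.01 and 1.21 CPM at E10.5. It was lowest in E10.5 replicate 1 and highest in E9.5 replicate 3, without overlap, and its log2 fold change was -2.16 ± 0.37 (adjusted p = 0.000382). Prdm1, a transcription factor of progenitor mesoderm, fell from 2.85 ± 0.643 CPM to 0.925 ± 0.274 CPM. Hoxb1, a marker of the posterior part of the field, fell from 0.667 ± 0.255 CPM to 0.0504 ± 0.0568 CPM (adjusted p = 0.00191), which at E10.5 is below the floor of 3 reads. Both members that rose, Tcf21 and Foxc1, are also expressed outside the field, Tcf21 in epicardium and Foxc1 in mesenchyme: Foxc1 rose from 8.24 ± 2.702 CPM to 19.2 ± 1.75 CPM. Of 14 Hox cluster genes tested, 3 were lower, among them Hoxb2, from 5.49 ± 1.72 CPM to 2.63 ± 0.426 CPM; 5 were lower without E10.5 replicate 4.

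Of the central transcription factors of heart muscle, 15 of 21 did not pass the test. The other 6 were lower and 0 were higher, with a median of -0.0905 over all 7 libraries, -0.11 in the low and -0.00540 in the high libraries. Nkx2-5, the homeobox factor that directs muscle differentiation, measured 303, 367 and 407 CPM at E9.5 and 191, 207, 256 and 217 CPM at E10.5. All E10.5 libraries lay below all E9.5 libraries, and it fell by 0.72 ± 0.15 on the log2 scale (adjusted p = 0.00271). Its log2 fold change was -0.93 in the low and -0.35 in the high libraries. The count rested on single libraries: it was 1 without E9.5 replicate 3, 2 without E10.5 replicate 4, and 3 without E9.5 replicate 2, E10.5 replicate 1 or E10.5 replicate 2. Among 17 factors that pattern the chambers, the atrioventricular canal and the pacemaker, 6 were lower and 2 higher, with 3 lower and 1 higher without E9.5 replicate 3 and 4 higher without E9.5 replicate 1. Tbx2, which represses chamber genes in the canal, measured 48.5, 62.7 and 80.7 CPM at E9.5 and 31.5, 29.2, 38.4 and 34.5 CPM at E10.5. The stages did not overlap, and Tbx2 fell by 0.94 ± 0.16 on the log2 scale (adjusted p = 0.000331). Irx1 and Irx4, homeobox factors of the ventricles, fell from 24.6 ± 4.62 CPM to 15.8 ± 0.411 CPM and from 103 ± 6.09 CPM to 78.7 ± 4.18 CPM. Tbx18, a factor of the sinus horns and epicardium, rose from 39.2 ± 9.796 CPM to 64.3 ± 4.92 CPM (adjusted p = 0.000406).

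Most smooth and skeletal muscle isoforms, which early heart muscle expresses beside the cardiac forms, fell. Of 21 tested, 12 were lower and 1 higher (2 higher without E9.5 replicate 1), with a median of -0.42 over all 7 libraries, -0.50 in the low and -0.41 in the high libraries. Acta2, smooth muscle alpha-actin, measured 2978, 3028 and 3729.6 CPM at E9.5 and 1699, 1708, 1899 and 1861 CPM at E10.5. The 3 E9.5 libraries were all well above the 4 E10.5 libraries, and Acta2 fell by 0.86 ± 0.10 on the log2 scale (adjusted p = 7.58e-06). Acta1, skeletal alpha-actin, measured 640.05, 673 and 833 CPM at E9.5 and 331, 349.6, 381 and 369 CPM at E10.5. It showed the same separation, with a log2 fold change of -1 ± 0.10 (adjusted p = 7.29e-07) and -1.12 in the low and -0.77 in the high libraries. The LIM proteins Csrp2 and Csrp1 fell from 414 ± 61.5 CPM to 224 ± 31.1 CPM and from 563 ± 38.97 CPM to 448 ± 24.3 CPM. The actin-binding proteins Cnn2 and Lmod1 fell from 647 ± 42.3 CPM to 445 ± 22.9 CPM and from 63.6 ± 5.603 CPM to 27.7 ± 3.26 CPM. The exception was Mybpc1, slow skeletal myosin-binding protein C, which rose from 5.36 ± 1.72 CPM to 19.2 ± 2.85 CPM (adjusted p = 5.49e-06).

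Of 30 cardiac sarcomere genes tested, 8 were lower and 1 higher, with a median of -0.19 over all 7 libraries, -0.19 in the low and -0.15 in the high libraries; 3 were higher without E9.5 replicate 1 and 2 without E10.5 replicate 3. Actc1, cardiac alpha-actin, fell from 10373 ± 813 CPM to 8090.1 ± 336 CPM, a log2 fold change of -0.36 ± 0.08. Myl7, the atrial regulatory light chain, measured 2826, 2553 and 3123 CPM at E9.5 and 1745, 1549.9, 2024 and 2059 CPM at E10.5. Its stages did not overlap, and it fell by 0.62 ± 0.14 on the log2 scale (adjusted p = 0.00507). Tpm1 (alpha-tropomyosin), Nexn (an actin-binding Z-disc protein) and Cryab (a small heat shock protein) had log2 fold changes of -0.42, -0.46 and -0.51. Myoz2, a calcineurin-binding Z-disc protein, measured 12.4, 9.73 and 7.303 CPM at E9.5 and 28.6, 28.97, 24.2 and 30.2 CPM at E10.5. It was the member that rose, by 1.51 ± 0.13 on the log2 scale (adjusted p = 3.39e-07).

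Promoters of 4 of the contractile genes that fell are shown because they carry a CArG box, the site that serum response factor is known to bind in muscle genes. The motif was searched on both strands as CC, then 6 bases that are each A or T, then GG, in the 250 bases before and 50 bases after each start in the RefSeq table (GRCm38.p6). Capitals mark the match.
Acta1 (chr8:123894726-123895025, minus strand): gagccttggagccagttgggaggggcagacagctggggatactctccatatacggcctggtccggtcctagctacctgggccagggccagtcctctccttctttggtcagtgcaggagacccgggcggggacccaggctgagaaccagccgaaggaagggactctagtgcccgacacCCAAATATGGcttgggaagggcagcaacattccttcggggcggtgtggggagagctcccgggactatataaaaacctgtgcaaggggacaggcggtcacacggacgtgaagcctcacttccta
Cnn2 (chr10:79988350-79988649, plus strand): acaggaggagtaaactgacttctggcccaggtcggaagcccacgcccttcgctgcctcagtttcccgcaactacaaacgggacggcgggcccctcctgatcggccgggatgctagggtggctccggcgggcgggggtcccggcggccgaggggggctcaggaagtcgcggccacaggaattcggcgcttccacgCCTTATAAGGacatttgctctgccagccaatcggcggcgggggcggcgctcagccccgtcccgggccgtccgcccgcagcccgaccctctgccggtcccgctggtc
Actc1 (chr2:114052826-114053125, minus strand): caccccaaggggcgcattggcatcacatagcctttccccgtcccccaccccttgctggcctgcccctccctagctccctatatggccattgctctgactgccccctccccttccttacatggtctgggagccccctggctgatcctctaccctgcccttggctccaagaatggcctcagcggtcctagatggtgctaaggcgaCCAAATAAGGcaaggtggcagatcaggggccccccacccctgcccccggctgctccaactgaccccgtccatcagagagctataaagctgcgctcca
Myl7 (chr11:5898733-5899032, minus strand): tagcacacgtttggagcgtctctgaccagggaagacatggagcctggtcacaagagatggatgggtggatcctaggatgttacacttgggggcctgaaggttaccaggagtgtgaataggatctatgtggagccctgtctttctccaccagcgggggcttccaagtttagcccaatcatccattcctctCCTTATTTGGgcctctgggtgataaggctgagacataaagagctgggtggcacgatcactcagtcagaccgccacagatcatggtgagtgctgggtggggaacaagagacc
The match starts at -73 in Acta1, -56 in Cnn2, -47 in Actc1 and -61 in Myl7, counted from the annotated start. A match was present in 3 of the 16 smooth and skeletal isoform genes that the table holds (18.8%) and in 5 of the 24 sarcomere genes (20.8%), against 1.59% of the 12868 tested genes with a promoter there. It was not limited to members that fell: of the sarcomere genes, 2 of 6 lower and 3 of 17 that did not pass held one.

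Genes of electrical coupling were more often higher than lower. Of 25 ion channel and connexin genes tested, 12 were higher and 2 lower, with a median of 0.34 over all 7 libraries, 0.41 in the low and 0.42 in the high libraries; 5 were lower without E9.5 replicate 1. Gja1 (connexin 43), the main gap junction protein of ventricular muscle, measured 98.5, 85.6 and 69.9 CPM at E9.5 and 209, 223, 173 and 169.5 CPM at E10.5. All 4 E10.5 libraries lay above all E9.5 libraries, and it rose by 1.19 ± 0.11 on the log2 scale (adjusted p = 6.58e-07). Gja5 (connexin 40), the gap junction protein of atria and trabeculae, rose from 69.9 ± 15.4 CPM to 143 ± 9.098 CPM (adjusted p = 4.67e-06). Potassium channel genes that rose included Kcnj2 and Kcnj3, inward rectifiers of resting potential and vagal response, from 6.75 ± 1.47 CPM to 13.4 ± 0.432 CPM and from 7.33 ± 2.81 CPM to 15.7 ± 1.78 CPM, and Kcnk3, a background channel, from 29.5 ± 4.37 CPM to 47.3 ± 5.93 CPM. Kcnj3 shares 31.1% of its exon length with an antisense gene, and strand use in counting is not given in the sources used here.

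Pln (phospholamban), the inhibitor of the calcium pump of the sarcoplasmic reticulum, measured 176, 132 and 78.5 CPM at E9.5 and 386, 414, 274 and 312 CPM at E10.5. E9.5 replicate 3 was lowest and all E10.5 libraries were higher than every E9.5 library. The log2 fold change was 1.43 ± 0.20 (adjusted p = 8.92e-05), with 1.95 in the low and 0.74 in the high libraries, and 59.6% of its exon length overlaps a gene on the other strand. Casq2, the calcium-binding protein of the reticulum, rose from 6.87 ± 3.34 CPM to 17.7 ± 0.608 CPM, and Itpr2, a calcium release channel, from 14.498 ± 1.55 CPM to 24.9 ± 1.29 CPM. Pln did not pass within the low libraries (adjusted p = 0.0677). In all, 5 of 22 calcium cycling genes were higher and 4 lower, with a median of -0.0596 over all 7 libraries, -0.0871 in the low and 0.17 in the high libraries; the lower count was between 0 and 2 without any 1 library other than E9.5 replicate 1. Cacnb2, a calcium channel subunit, fell by 0.36 ± 0.10 on the log2 scale (adjusted p = 0.0217), and did not pass without E9.5 replicates 2 or 3 or E10.5 replicates 3 or 4 (adjusted p 0.0605 to 0.156). Among 20 muscle splicing regulators, Mbnl1 and Mbnl2, which direct adult splice forms, rose from 53.8 ± 5.41 CPM to 90.8 ± 7.71 CPM and from 94.3 ± 1.64 CPM to 132 ± 17.1 CPM, and 4 higher were counted without E9.5 replicate 1. Rbm38 fell by 0.57 ± 0.11 on the log2 scale, among 4 lower members (2 without E9.5 replicate 1 or E10.5 replicates 1, 2 or 3).

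**Figure D3:**
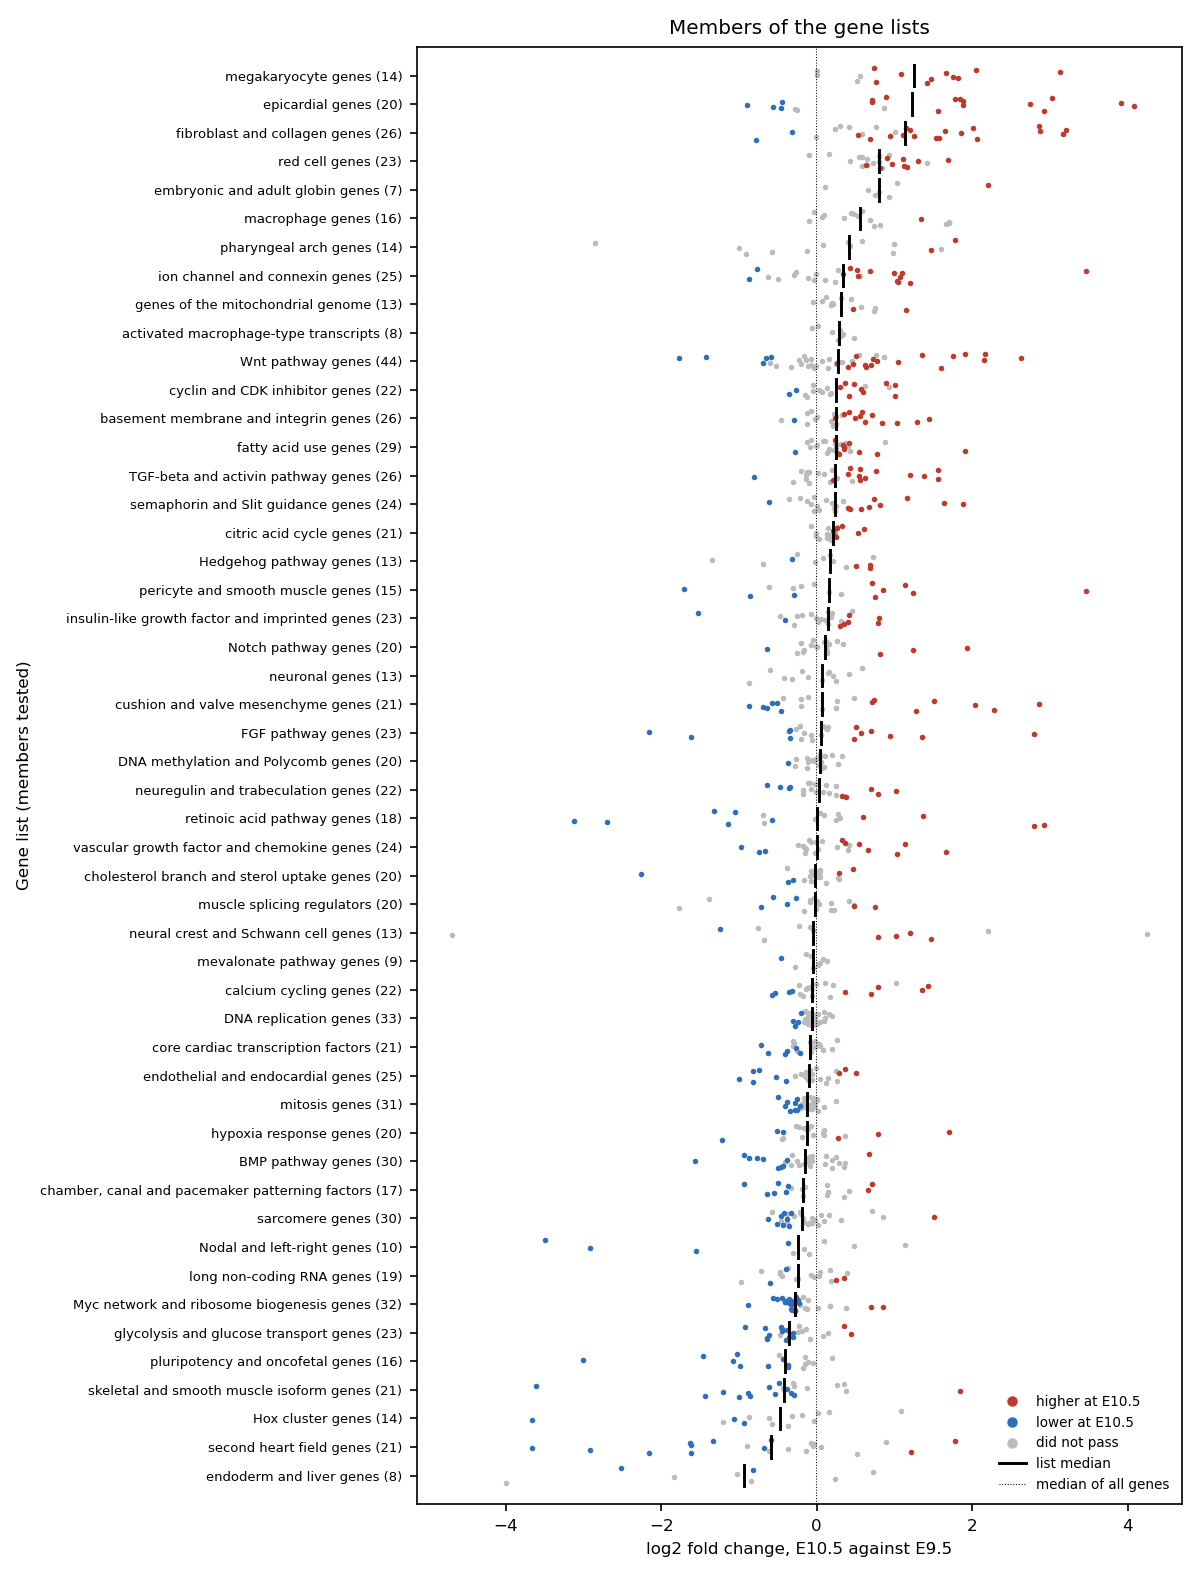
Log2 fold change of every tested member of the 50 gene lists (number tested in parentheses), with red for higher, blue for lower, grey for members that did not pass, and a bar at each list's median. Megakaryocyte, epicardial and fibroblast lists have medians above 1, and second heart field, Hox and smooth and skeletal isoform lists lie lowest among lists with over 10 members tested.

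Epicardial genes gave some of the clearest rises. Of 20 tested, 13 were higher and 4 lower, with a median of 1.22 over all 7 libraries, 1.71 in the low and 1.32 in the high libraries; 2 were lower without E9.5 replicate 3. Upk3b (chr5:136038496-136046487), a uroplakin used as a mesothelial marker, measured 25.1, 32.7 and 12.2 CPM at E9.5 and 199, 222, 160.02 and 178 CPM at E10.5. The lowest E10.5 library stood far above the highest E9.5 library, and Upk3b rose by 3.02 ± 0.28 on the log2 scale (adjusted p = 3.21e-06). Krt7 (chr15:101411043-101430313), a keratin of simple epithelia, measured 1.81, 2.04 and 0.432 CPM at E9.5 and 26.3, 30.1, 20.3 and 20.7 CPM at E10.5. E9.5 replicate 3 was lowest, the stages did not overlap, and the log2 fold change was 4.08 ± 0.31 (adjusted p = 3.29e-07). Tcf21, a factor of epicardium and of the fibroblasts that descend from it, measured 23.8, 18.4 and 9.96 CPM at E9.5 and 55.1, 60.9, 59.4 and 62.5 CPM at E10.5. It rose by 1.77 ± 0.19 on the log2 scale (adjusted p = 6.9e-06), with 2.06 in the low and 1.36 in the high libraries. Wt1, the zinc finger factor of the epicardium, rose from 31.2 ± 7.31 CPM to 57.6 ± 1.37 CPM (adjusted p = 1.16e-05). Within the low libraries alone Upk3b, Tcf21 and Wt1 did not pass (adjusted p 0.0744, 0.0585 and 0.132). The mesothelial surface proteins Msln and Muc16 rose from 0.127 ± 0.0258 CPM to 0.8803 ± 0.234 CPM and from 0.0631 ± 0.0292 CPM to 0.999 ± 0.418 CPM, with Muc16 below the 3-read floor at E9.5, and the secreted Sema3d from 9.18 ± 3.56 CPM to 33.9 ± 6.51 CPM. The keratins Krt8 and Krt19, which epithelia other than the epicardium also express, had log2 fold changes of -0.90 ± 0.18 and -0.56 ± 0.12, both falls.

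Mature cardiac fibroblasts are known to arise later, but most matrix genes of the fibroblast list were already higher at E10.5. Of 26 fibroblast and collagen genes tested, 17 were higher and 2 lower, with a median of 1.13 over all 7 libraries, 1.18 in the low and 1.28 in the high libraries; the lower count was 0 without E9.5 replicate 3 or E10.5 replicate 1, and 1 without E9.5 replicate 2 or E10.5 replicates 2, 3 or 4. Postn (periostin), a matricellular protein of cushions and fibroblasts, measured 17.6, 14.7 and 4.88 CPM at E9.5 and 100.4, 103, 74.7 and 82.1 CPM at E10.5. The stages did not overlap, and it rose by 2.85 ± 0.33 on the log2 scale (adjusted p = 2.95e-05; 0.0658 within the low libraries). Col1a1, of the main fibrillar collagen, measured 21.97, 48.7 and 38.9 CPM at E9.5 and 185, 174, 123 and 125 CPM at E10.5. E9.5 replicate 1 was lowest, the 2 low E10.5 libraries were highest, and the log2 fold change was 2.06 ± 0.22 (adjusted p = 8.32e-06). Dcn (decorin), a small proteoglycan that binds collagen, rose from 3.12 ± 1.99 CPM to 28.4 ± 4.81 CPM, Lum (lumican), of the same family, from 0.457 ± 0.113 CPM to 4.21 ± 1.23 CPM, and Fmod (fibromodulin) from 2.26 ± 0.945 CPM to 16.49 ± 3.28 CPM. Fbln1, a fibulin, fell by 0.32 ± 0.09 on the log2 scale (adjusted p = 0.0206; adjusted p = 0.165 without E9.5 replicate 3 and 0.064 without E10.5 replicate 1). Col3a1 rose from 125 ± 22.005 CPM to 361 ± 24.7 CPM, and Lox, which cross-links collagen and elastin, from 1.296 ± 0.0344 CPM to 4.04 ± 0.908 CPM.

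Cushion and valve genes split. Of 21 tested, 7 were higher and 6 lower, with a median of 0.0678 over all 7 libraries, 0.0225 in the low and 0.13 in the high libraries; 2 were lower without E9.5 replicate 3. Fbln2, a fibulin of cushion matrix, rose from 28.8 ± 11.96 CPM to 140.1 ± 21.1 CPM, Snai2, a factor of epithelial to mesenchymal transition, from 2.99 ± 0.151 CPM to 8.53 ± 1.39 CPM, and Sox9, a factor of valve precursors, from 25.6 ± 7.08 CPM to 42.9 ± 5.47 CPM. Msx1 and Msx2, homeobox targets of BMP signals in the cushions, fell from 24.6 ± 3.43 CPM to 15.3 ± 2.17 CPM and from 26.99 ± 2.11 CPM to 14.7 ± 0.913 CPM. Of 26 basement membrane and integrin genes, 12 were higher and 1 lower (0 lower without any 1 library other than E9.5 replicate 1). Itga8, Itga3 and Itgb5, integrin chains, had log2 fold changes of 1.44, 0.62 and 0.56, and Nid1, which links laminin to collagen IV, rose by 0.58 ± 0.11 on the log2 scale. The lower member was Itga6, a laminin-binding integrin chain, with a log2 fold change of -0.30 ± 0.10 (adjusted p = 0.0436), and adjusted p from 0.0589 to 0.268 without any 1 library other than E9.5 replicate 1.

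Endothelial genes were more often lower than higher. Of 25 tested, 6 were lower and 3 higher, with a median of -0.10 over all 7 libraries, -0.10 in the low and 0.0597 in the high libraries. Sox17 and Sox18, factors of early endothelium, fell from 7.44 ± 0.5598 CPM to 4.21 ± 0.404 CPM and from 21.1 ± 2.53 CPM to 12.6 ± 1.89 CPM. Npr3, a natriuretic peptide receptor of the endocardium, rose from 134 ± 4.096 CPM to 189.9 ± 10.1 CPM, and Pecam1, a junction protein of all endothelium, rose by 0.28 ± 0.06 on the log2 scale. Pericyte and smooth muscle genes gave 6 higher and 3 lower of 15, with a median of 0.16 over all 7 libraries, 0.03700 in the low and 0.49 in the high libraries, and with 6 lower without E9.5 replicate 1. Their summed level went from 4017 ± 456 CPM to 2665 ± 73 CPM, most of it Acta2, which fell as given above. Calponin (Cnn1) fell by 0.29 ± 0.06 on the log2 scale (adjusted p = 0.00266), and smooth muscle myosin (Myh11) from 8.73 ± 5.304 CPM to 2.67 ± 0.6404 CPM (adjusted p = 0.00592; 0.0579 without E9.5 replicate 3). Pdgfrb, the receptor that marks mural cells, rose from 13.8 ± 1.62 CPM to 30.3 ± 2.64 CPM (adjusted p = 1.61e-07), and Heyl, a Notch target in these cells, from 2.41 ± 0.396 CPM to 5.73 ± 0.2895 CPM. The potassium channel gene Kcnj8 was near the floor at E9.5, with 0.0604, 0.1298 and 0.0996 CPM at E9.5 and 1.33, 0.986, 0.821 and 1.21 CPM at E10.5, so no fold is given for it.

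Most genes of megakaryocytes, the cells that make platelets, rose. Of 14 megakaryocyte genes tested, 10 were higher and 0 lower, with a median of 1.25 over all 7 libraries, 1.1 in the low and 1.4 in the high libraries. Treml1, a receptor of platelet granules, measured 1.03, 0.714 and 0.763 CPM at E9.5 and 2.81, 2.62, 3.63 and 4.88 CPM at E10.5. The high E10.5 libraries were highest, the stages did not overlap, and it rose by 2.05 ± 0.33 on the log2 scale (adjusted p = 0.000228). Ppbp, a platelet chemokine, rose from 0.659 ± 0.622 CPM to 5.86 ± 0.767 CPM, and Gp9 and Gp5, subunits of the von Willebrand factor receptor, from 0.501 ± 0.102 CPM to 1.69 ± 0.597 CPM and from 0.8603 ± 0.138 CPM to 2.39 ± 0.6598 CPM. Of 23 red cell genes, 9 were higher and 0 lower, with a median of 0.80 over all 7 libraries, 0.76 in the low and 0.95 in the high libraries; the count was 4 without E9.5 replicate 1 and 5 without E9.5 replicates 2 or 3 or E10.5 replicates 2 or 3. Ank1, the ankyrin of the red cell membrane, rose from 56.2 ± 7.77 CPM to 98.96 ± 12.1 CPM, and Fech, the last enzyme of haem synthesis, from 74.998 ± 7.24 CPM to 117 ± 6.49 CPM. The embryonic globin Hbb-bh1 measured 2682, 1934 and 1639.6 CPM at E9.5 and 2577, 2519, 4288 and 3828 CPM at E10.5. Its stages overlapped, both high E10.5 libraries were highest, and it did not pass (adjusted p = 0.595). Of 7 globin genes 1 passed: Hbb-bt, an adult beta globin, rose from 8.59 ± 5.73 CPM to 39.9 ± 5.89 CPM (adjusted p = 0.0044), though near-identical globin copies make its counts uncertain. Globin reads made up 0.498% to 0.791% of counts at E9.5 and 0.910% to 1.58% at E10.5.

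Macrophage genes differed with the kind of library. Of 16 tested, 1 was higher and 0 lower over all 7 libraries, and 9 were higher without E9.5 replicate 1. Cx3cr1, a chemokine receptor of tissue macrophages, was the 1 that passed, from 0.463 ± 0.149 CPM to 1.19 ± 0.155 CPM (adjusted p = 3.84e-05). Adgre1 (F4/80) measured 6.76, 0 and 0 CPM at E9.5 and 0.663, 0.481, 5.72 and 8.44 CPM at E10.5. It was at 0 in both low E9.5 libraries and above 0 in all others, and did not pass (adjusted p = 0.741). None of the 8 activated macrophage-type transcripts passed in either direction. Markers of other tissues were looked at too. The 13 neuronal genes tested summed to 158 CPM in E9.5 replicate 1, 115 in E10.5 replicate 3 and 136 in E10.5 replicate 4, the high libraries, and to between 50.7 and 68.6 CPM in the 4 low ones. Their sum thus went with the kind of library, and 0 of them were called between stages. The 8 endoderm and liver genes summed to between 6.28 and 69.1 CPM. The highest was E9.5 replicate 2, in which Afp, alpha-fetoprotein of yolk sac and liver, was at 45.3 CPM against 0.211 and 0.432 CPM in the other E9.5 libraries. Of the endoderm list 2 were lower, Sox17 and Ttr, and 1 without E9.5 replicate 2, since Ttr passed only with that library (adjusted p = 0.548 without it). Among 13 neural crest and Schwann cell genes, 4 were higher and 1 lower (0 lower without E10.5 replicate 2, and 2 without E9.5 replicates 1 or 3 or E10.5 replicate 4). Ednrb and Erbb3, receptors of crest-derived cells among others, rose from 62.6 ± 7.19 CPM to 108 ± 9.04 CPM and from 11.6 ± 2.99 CPM to 23.5 ± 1.83 CPM, and Ngfr from 2.19 ± 0.376 CPM to 5.03 ± 0.752 CPM. Ret, a receptor of enteric crest cells, fell from 0.388 ± 0.186 CPM to 0.161 ± 0.0214 CPM (adjusted p = 0.0246), and did not pass without E9.5 replicate 3 or E10.5 replicates 1 or 2 (adjusted p 0.051 to 0.247). Of 14 pharyngeal arch genes 2 were higher, Tcf21 among them, and 1 without E9.5 replicates 2 or 3 or E10.5 replicate 4.

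BMP signals direct cushion and canal formation. Of 30 BMP genes tested, 9 were lower and 1 higher, with a median of -0.14 over all 7 libraries, -0.32 in the low and 0.00842 in the high libraries; 5 were lower without E9.5 replicate 3, and 2 or 3 were higher without E9.5 replicate 1 or E10.5 replicates 3 or 4. Nog (noggin), an antagonist that binds BMP ligands, fell from 18.6 ± 1.64 CPM to 10.98 ± 2.21 CPM. Twsg1, a modulator of the same ligands, was the member that rose, from 73.8 ± 9.81 CPM to 117 ± 15.95 CPM. In the TGF-beta and activin list the balance was the other way, with 12 higher and 1 lower of 26 and a median of 0.24 over all 7 libraries, 0.27 in the low and 0.32 in the high libraries (0 lower without E9.5 replicates 2 or 3 or E10.5 replicates 2, 3 or 4). Tgfb3, a ligand of cushion transition, measured 8.93, 10.8 and 10.2 CPM at E9.5 and 18.5, 18.8, 14.9 and 15.2 CPM at E10.5. The stages did not overlap, and it rose by 0.76 ± 0.10 on the log2 scale (adjusted p = 3.14e-05). Its receptors Tgfbr2 and Tgfbr3 rose by 0.56 ± 0.09 and 0.43 ± 0.10 on the log2 scale, and Ltbp3, which stores latent ligand in matrix, from 5.49 ± 1.06 CPM to 14.3 ± 1.52 CPM. Ltbp2, of the same family, fell from 2.49 ± 0.149 CPM to 1.42 ± 0.224 CPM (adjusted p = 0.0367), and did not pass without any 1 library other than E10.5 replicate 1 (adjusted p 0.0727 to 0.124).

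Wnt genes changed in both directions. Of 44 tested, 17 were higher and 5 lower, with a median of 0.28 over all 7 libraries, 0.31 in the low and 0.46 in the high libraries; 3 were lower without E9.5 replicate 3. Wnt2, a ligand of the venous pole and early myocardium, measured 55.02, 70.9 and 94.9 CPM at E9.5 and 25.1, 16.47, 32.5 and 35.5 CPM at E10.5. It was lower in every E10.5 library, with a log2 fold change of -1.43 ± 0.24 (adjusted p = 0.000626) and -1.97 in the low and -0.69 in the high libraries. The secreted antagonist Sfrp5 fell from 38.4 ± 11.1 CPM to 11.3 ± 2.83 CPM and the nuclear effector Tcf7 from 27.7 ± 3.87 CPM to 17.6 ± 0.755 CPM. Rspo1, an R-spondin that amplifies Wnt signals and is known from the epicardium, measured 1.99, 2.17 and 1.39 CPM at E9.5 and 7.996, 9.64, 8.05 and 7.32 CPM at E10.5. It was higher in every E10.5 library and rose by 2.15 ± 0.17 on the log2 scale (adjusted p = 1.21e-07). The ligands Wnt9b and Wnt5b rose from 0.612 ± 0.205 CPM to 2.74 ± 0.752 CPM and from 3.23 ± 0.419 CPM to 8.24 ± 0.915 CPM, and the antagonists Wif1 and Dkk2 from 0.0518 ± 0.0467 CPM to 0.347 ± 0.101 CPM and from 1.098 ± 0.379 CPM to 3.34 ± 0.705 CPM, with Wif1 below the 3-read floor at E9.5.

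In the FGF list 7 were higher and 5 lower of 23 (3 lower without E9.5 replicate 3 or E10.5 replicates 3 or 4). Beside the falls of Fgf8 and Fgf10 described above, Fgfr1, a receptor, fell by 0.36 ± 0.08 on the log2 scale, while the ligands Fgf18 and Fgf1 rose from 0.508 ± 0.2403 CPM to 3.57 ± 0.29995 CPM and from 3.63 ± 0.923 CPM to 9.31 ± 2.05 CPM. Notch genes gave 3 higher and 1 lower of 20 (0 lower without E9.5 replicate 3 and 2 without E9.5 replicate 1): Lfng, a glycosyltransferase that modifies Notch, rose from 1.28 ± 0.877 CPM to 4.91 ± 0.614 CPM, and the ligand Dll1 from 5.66 ± 1.09 CPM to 9.93 ± 0.729 CPM. The ligand Jag2 fell from 40.98 ± 11.5 CPM to 26.4 ± 1.43 CPM (adjusted p = 0.00497; adjusted p = 0.0544 without E9.5 replicate 3). In the Hedgehog list the co-receptors Boc and Gas1 rose by 0.68 ± 0.14 and 0.68 ± 0.14 on the log2 scale, among 3 higher of 13. The receptor Ptch1, itself a target of the pathway, was the 1 lower member, by 0.32 ± 0.11 on the log2 scale (adjusted p = 0.04). It passed only with all 7 libraries or without E9.5 replicate 1 or E10.5 replicate 2 (adjusted p 0.0509 to 0.275 otherwise), and the lower count was 3 without E9.5 replicate 1 and 0 without E9.5 replicates 2 or 3 or E10.5 replicates 1, 3 or 4.

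Retinoic acid is made from retinol by dehydrogenases and cleared by Cyp26 enzymes. Of 18 genes tested, 4 were higher and 6 lower. Aldh1a2, the main enzyme that makes retinoic acid in the embryo and an epicardial gene, measured 4.53, 4.18 and 2.42 CPM at E9.5 and 30.5, 34.4, 22.7 and 25.5 CPM at E10.5. The stages did not overlap, and it rose by 2.92 ± 0.20 on the log2 scale (adjusted p = 3.21e-08). Aldh1a1, of the same family, rose from 4.59 ± 2.82 CPM to 31.9 ± 2.16 CPM. Crabp2, which carries retinoic acid to its receptors, measured 17.96, 18.004 and 22.6 CPM at E9.5 and 2.25, 1.61, 4.56 and 3.697 CPM at E10.5. It fell by 2.69 ± 0.28 on the log2 scale (adjusted p = 1.91e-06), without overlap. Cyp26a1, a clearing enzyme, fell from 1.53 ± 1.31 CPM to 0.173 ± 0.0519 CPM, and Stra6, a retinol uptake receptor, from 2.49 ± 0.385 CPM to 0.9896 ± 0.322 CPM.

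Among insulin-like growth factor and imprinted genes 6 were higher and 2 lower of 23 (1 lower without E9.5 replicate 3). Igf2, a fetal growth factor also made by the epicardium, was at 3983, 4516 and 4362 CPM at E9.5 and 5755, 5932, 5620.3 and 5391 CPM at E10.5. All E10.5 libraries were higher, and Igf2 rose by 0.40 ± 0.08 on the log2 scale (adjusted p = 0.00136), with the caution that 62.8% of its exon length overlaps another annotated gene on the same strand. Igf1 rose from 32.4 ± 6.24 CPM to 56.001 ± 4.36 CPM, and Igfbp3, a binding protein of these factors, fell from 20.3 ± 1.85 CPM to 15.3 ± 0.608 CPM (adjusted p = 0.0063). Vascular growth factor and chemokine genes gave 7 higher and 3 lower of 24: Cxcl12 and its scavenger receptor Ackr3 rose from 50.9 ± 3.15 CPM to 80.3 ± 7.25 CPM and from 18.2 ± 4.13 CPM to 37.2 ± 2.52 CPM, and Apln and its receptor Aplnr fell from 1.55 ± 0.201 CPM to 0.927 ± 0.189 CPM and from 8.14 ± 0.677 CPM to 5.16 ± 0.981 CPM. Of 24 semaphorin and Slit genes, 9 were higher and 1 lower. Slit2, a secreted guidance ligand, measured 43.6, 54.3 and 35.6 CPM at E9.5 and 109, 129.9, 82.02 and 76.2 CPM at E10.5. Its stages did not overlap, and it rose by 1.16 ± 0.21 on the log2 scale (adjusted p = 0.000892). Sema3g, a secreted semaphorin, fell from 10.2 ± 1.801 CPM to 6.67 ± 0.437 CPM (adjusted p = 0.00169). Among 22 neuregulin and trabeculation genes 5 were higher and 4 lower; 3 were higher without E10.5 replicate 1 and 2 without E10.5 replicate 2, and 2 were lower without E9.5 replicate 3. Fkbp1a, a binding protein of calcium release channels and TGF-beta family receptors, fell by 0.47 ± 0.08 on the log2 scale.

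Most ribosome biogenesis genes fell, by small amounts. Ribosome biogenesis is driven in part by Myc. Of 32 genes of the Myc network and ribosome biogenesis, 21 were lower and 2 higher, with a median of -0.28 over all 7 libraries, -0.26 in the low and -0.22 in the high libraries. Ncl (nucleolin), an abundant nucleolar protein, measured 1239, 1224 and 1221 CPM at E9.5 and 1033, 911, 988 and 984 CPM at E10.5. Every E10.5 library was lower, and it fell by 0.33 ± 0.07 on the log2 scale (adjusted p = 0.00252). Rrp9, Nop2 and Nop56, which process ribosomal RNA, fell, with log2 fold changes of -0.56 ± 0.09, -0.41 ± 0.07 and -0.41 ± 0.10. Both members that rose, Mxd4 and Mxd3, encode proteins that compete with Myc for Max, with log2 fold changes of 0.70 ± 0.07 and 0.85 ± 0.16. The E box CACGTG, searched on both strands, was present in 2 of the 16 lower members with a promoter in the table, in 4 of the 8 that did not pass and in 1 of the 2 that rose, Mxd4. That is 7 of 26 members with a promoter in the table (26.9%), against 10.99% of all tested genes with a promoter there.

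Of 22 cyclin and CDK inhibitor genes, 9 were higher and 2 lower, with a median of 0.25 over all 7 libraries, 0.31 in the low and 0.26 in the high libraries. Ccnd1 (cyclin D1), which drives entry into S phase, measured 91.5, 125 and 77.1 CPM at E9.5 and 219, 219, 171 and 181 CPM at E10.5. The stages did not overlap, and it rose by 1.01 ± 0.13 on the log2 scale (adjusted p = 1.31e-05; 0.133 within the low libraries). Inhibitors of proliferation rose too: Cdkn2c (p18) measured 3.77, 4.31 and 4.25 CPM at E9.5 and 8.68, 8.13, 8.08 and 7.997 CPM at E10.5. It was higher in every E10.5 library, by 1.001 ± 0.12 on the log2 scale (adjusted p = 5.18e-06). Rbl2 (p130) rose from 12.96 ± 1.98 CPM to 24.1 ± 2.04 CPM and Cdkn1a (p21) from 18.6 ± 3.42 CPM to 27.7 ± 2.703 CPM. Ccne1 (cyclin E1) fell by 0.35 ± 0.07 on the log2 scale. In the mitosis list 9 were lower and 0 higher of 31, with 4 lower without E9.5 replicate 3 and 5 with scaling by library totals alone. Cenpa, the centromeric histone, fell by 0.40 ± 0.07 on the log2 scale, and the ubiquitin ligase Ube2c by 0.49 ± 0.09 on the same scale. In the DNA replication list 4 of 33 were lower (12.1%, against 7.62% of all genes), falling to 1 without E9.5 replicates 2 or 3 and 2 without E9.5 replicate 1 or E10.5 replicates 2 or 3. Cdc45, part of the replicative helicase, fell by 0.28 ± 0.07 on the log2 scale.

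Most genes of glycolysis fell. Of 23 glycolysis and glucose transport genes, 13 were lower and 2 higher, with a median of -0.35 over all 7 libraries, -0.36 in the low and -0.29 in the high libraries. Ldha, the lactate dehydrogenase subunit that favours lactate, measured 3191, 2789 and 3149 CPM at E9.5 and 1952, 1940.3, 2063 and 2022 CPM at E10.5. All E10.5 libraries were lower, and Ldha fell by 0.61 ± 0.09 on the log2 scale (adjusted p = 0.000131), with -0.58 in the low and -0.64 in the high libraries. Ldhb, the subunit of oxidative muscle, rose by 0.44 ± 0.10 on the log2 scale. Slc2a3 (GLUT3), a glucose transporter of early embryos, measured 155, 161 and 224 CPM at E9.5 and 94.2, 91.5, 99.3 and 96.6 CPM at E10.5. It fell by 0.92 ± 0.16 on the log2 scale (adjusted p = 0.000571), while Slc2a4 (GLUT4), the insulin-responsive transporter of muscle, rose by 0.35 ± 0.08 on that scale. The enolases Eno1 and Eno3 fell, with log2 fold changes of -0.64 ± 0.08 and -0.64 ± 0.08, and Pkm, Pgam1, Pgk1, Aldoa and Gapdh had log2 fold changes between -0.35 and -0.45.

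Promoters of Ldha and Pgk1 are shown because both genes fell and are known targets of hypoxia-inducible factor. The core ACGTG of its site was searched on both strands (CACGT is the reverse), and capitals mark the matches. It also lies within the E box CACGTG.
Ldha (chr7:46845554-46845853, plus strand): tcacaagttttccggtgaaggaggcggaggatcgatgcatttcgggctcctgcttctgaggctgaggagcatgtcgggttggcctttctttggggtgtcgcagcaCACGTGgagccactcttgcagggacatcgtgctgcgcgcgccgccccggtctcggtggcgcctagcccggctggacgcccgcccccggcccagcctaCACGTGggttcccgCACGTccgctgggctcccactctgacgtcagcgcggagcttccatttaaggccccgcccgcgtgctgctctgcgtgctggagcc
Pgk1 (chrX:106186850-106187149, plus strand): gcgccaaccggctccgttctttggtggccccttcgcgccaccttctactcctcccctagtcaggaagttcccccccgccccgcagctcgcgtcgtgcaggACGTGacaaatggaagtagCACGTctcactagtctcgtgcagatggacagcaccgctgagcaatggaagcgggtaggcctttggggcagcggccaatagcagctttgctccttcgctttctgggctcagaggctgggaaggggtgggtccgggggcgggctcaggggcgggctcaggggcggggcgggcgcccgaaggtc
The 5 matches in Ldha, some of which overlap, begin at -145, -144, -48, -47 and -34, and the 2 in Pgk1 at -150 and -131. A match was present in 8 of 12 lower glycolysis genes with a promoter in the table (66.7%) and in 5 of 8 that did not pass (62.5%). Of all tested genes with a promoter there, 27.6% held a match.

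Hypoxia response genes gave 3 higher and 3 lower of 20, with a median of -0.13 over all 7 libraries, -0.0939 in the low and -0.0263 in the high libraries; 1 was lower without E9.5 replicate 3. Hif3a, an alpha subunit known to restrain the response, measured 16.2, 21.96 and 20.5 CPM at E9.5 and 60.4, 75.9, 61.4 and 57.1 CPM at E10.5. The stages were far apart, and it rose by 1.70 ± 0.12 on the log2 scale (adjusted p = 1.9e-08), with 1.71 in the low and 1.87 in the high libraries. Epas1 (HIF-2 alpha) rose from 17.9 ± 1.83 CPM to 30.96 ± 3.42 CPM. Adm (adrenomedullin), a hypoxia-induced vascular peptide, measured 14.2, 15.6 and 22.2 CPM at E9.5 and 6.01, 6.08, 9.09 and 8.65 CPM at E10.5. It fell by 1.22 ± 0.19 on the log2 scale (adjusted p = 0.000167).

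Genes of fatty acid use were more often higher than lower. Of 29 tested, 10 were higher and 1 lower, with a median of 0.24 over all 7 libraries, 0.37 in the low and 0.14 in the high libraries; 16 were higher without E9.5 replicate 1 and 6 without E9.5 replicates 2 or 3, and 0 lower without E9.5 replicate 3 or E10.5 replicates 1 or 4. Cpt1a, which carries fatty acids into mitochondria and is the fetal form, measured 9.36, 10.9 and 5.48 CPM at E9.5 and 33.6, 39.1, 27.3 and 28.9 CPM at E10.5. The stages did not overlap, and it rose by 1.91 ± 0.17 on the log2 scale (adjusted p = 8.33e-07; 0.057 within the low libraries). The acyl-CoA dehydrogenases Acadl and Acadvl rose by 0.78 ± 0.09 and 0.54 ± 0.08 on the log2 scale, and 42.9% of the exon length of Acadvl overlaps Dvl2 on the other strand. Acsl1, which activates fatty acids, fell by 0.28 ± 0.08 on the log2 scale (adjusted p = 0.026), with adjusted p of 0.225 without E9.5 replicate 3, 0.0755 without E10.5 replicate 1 and 0.0535 without E10.5 replicate 4. Of 21 citric acid cycle and pyruvate genes, 7 were higher and 0 lower, with 3 higher without E9.5 replicate 3 and 11 with scaling by library totals alone. Pdk2, a kinase that restrains pyruvate oxidation, rose by 0.61 ± 0.10 on the log2 scale, and Mpc1, a subunit of the mitochondrial pyruvate carrier, by 0.53 ± 0.11. The share of reads from the mitochondrial genome was 2.04% to 2.37% at E9.5 and 2.40% to 3.18% at E10.5, and the median change of its 13 genes was 0.32 over all 7 libraries, 0.45 in the low and -0.11 in the high libraries. Of these 13, 2 were higher, against 6 without E9.5 replicate 1, 1 without E9.5 replicate 2 or E10.5 replicates 2 or 4, and 0 without E9.5 replicate 3 or E10.5 replicate 1. mt-Co1, a subunit of cytochrome c oxidase, rose from 7827 ± 333 CPM to 10804 ± 1669 CPM (adjusted p = 0.0149), with adjusted p of 0.0676 without E9.5 replicate 3 and 0.0582 without E10.5 replicate 1, and nuclear copies make its counts uncertain.

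The mevalonate pathway feeds sterol synthesis and protein prenylation. Of 9 genes tested, 1 was lower, 0 were higher and 8 did not pass, with a median of -0.0497 over all 7 libraries, -0.0254 in the low and -0.0625 in the high libraries; 2 were lower without E10.5 replicate 4. Mvd, the decarboxylase of the pathway, measured 42.2, 41.9 and 42.8 CPM at E9.5 and 28.4, 29.1, 33.7 and 32.2 CPM at E10.5. It was lower in every E10.5 library, with a log2 fold change of -0.45 ± 0.09 (adjusted p = 0.00179). The share of members called was 11.1%, which is 1 gene, against 18.2% of all genes. Within the low libraries 2 members were higher and 2 lower, where 19.3% of all genes were higher and 15.5% lower. Of 20 genes of the sterol branch and sterol uptake, 2 were higher (1 without E9.5 replicate 3) and 3 lower (0 without E9.5 replicate 2, 1 without E10.5 replicates 1 or 2), and Stard4, a sterol carrier, rose by 0.47 ± 0.09 on the log2 scale. Of 20 DNA methylation and Polycomb genes, 1 was lower, and 0 without E9.5 replicates 2 or 3 or any 1 E10.5 library (adjusted p 0.0654 to 0.291). It was Dnmt3b, a de novo DNA methyltransferase, with a log2 fold change of -0.37 ± 0.12 (adjusted p = 0.0389).

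Genes not typed as coding were taken by the same rule as coding genes, which leaves out Gm and Rik names and genes under 10 CPM. Of these, 4 rose and the 5 largest of 6 falls are named. H19, an imprinted transcript, rose from 7081 ± 351 CPM to 9069.5 ± 211 CPM (adjusted p = 0.00437), and Brip1os, an antisense transcript, by 0.35 ± 0.07 on the log2 scale. Trerf1, typed as a processed transcript, rose by 0.36 ± 0.10 on the log2 scale (adjusted p = 0.0537 without E9.5 replicate 1), and Dubr by 0.25 ± 0.08 on that scale. Bvht (Braveheart), known from the commitment of cardiac mesoderm, fell from 13.6 ± 0.754 CPM to 8.96 ± 0.609 CPM (adjusted p = 0.0108), and Rian, an imprinted transcript, fell by 0.39 ± 0.11 on the log2 scale (adjusted p = 0.0602 without E9.5 replicate 3). Log2 fold changes were -0.73 ± 0.23 for Dancr, -0.36 ± 0.11 for Ptpmt1, typed as a processed transcript, and -0.56 ± 0.18 for ENSMUSG00000097769, a gene with no entry in the annotation used. Dancr did not pass without any 1 E9.5 library or without E10.5 replicates 1 or 2 (adjusted p 0.0562 to 0.107), nor Dubr without E9.5 replicates 1 or 2 or E10.5 replicates 1, 2 or 4 (0.0565 to 0.144). ENSMUSG00000097769 passed only with all 7 libraries or without E10.5 replicate 3 (0.0515 to 0.133 otherwise), and Ptpmt1 did not pass without E9.5 replicates 1 or 3 or E10.5 replicates 1 or 2 (0.0773 to 0.123). Of the 19 genes in the long non-coding list, 2 were higher (1 without E9.5 replicates 1 or 2 or E10.5 replicates 1, 2 or 4) and 2 lower (1 without E9.5 replicate 3). Ptpmt1 shares 45.0% of its exon length with a gene on the other strand.

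**Figure D4:**
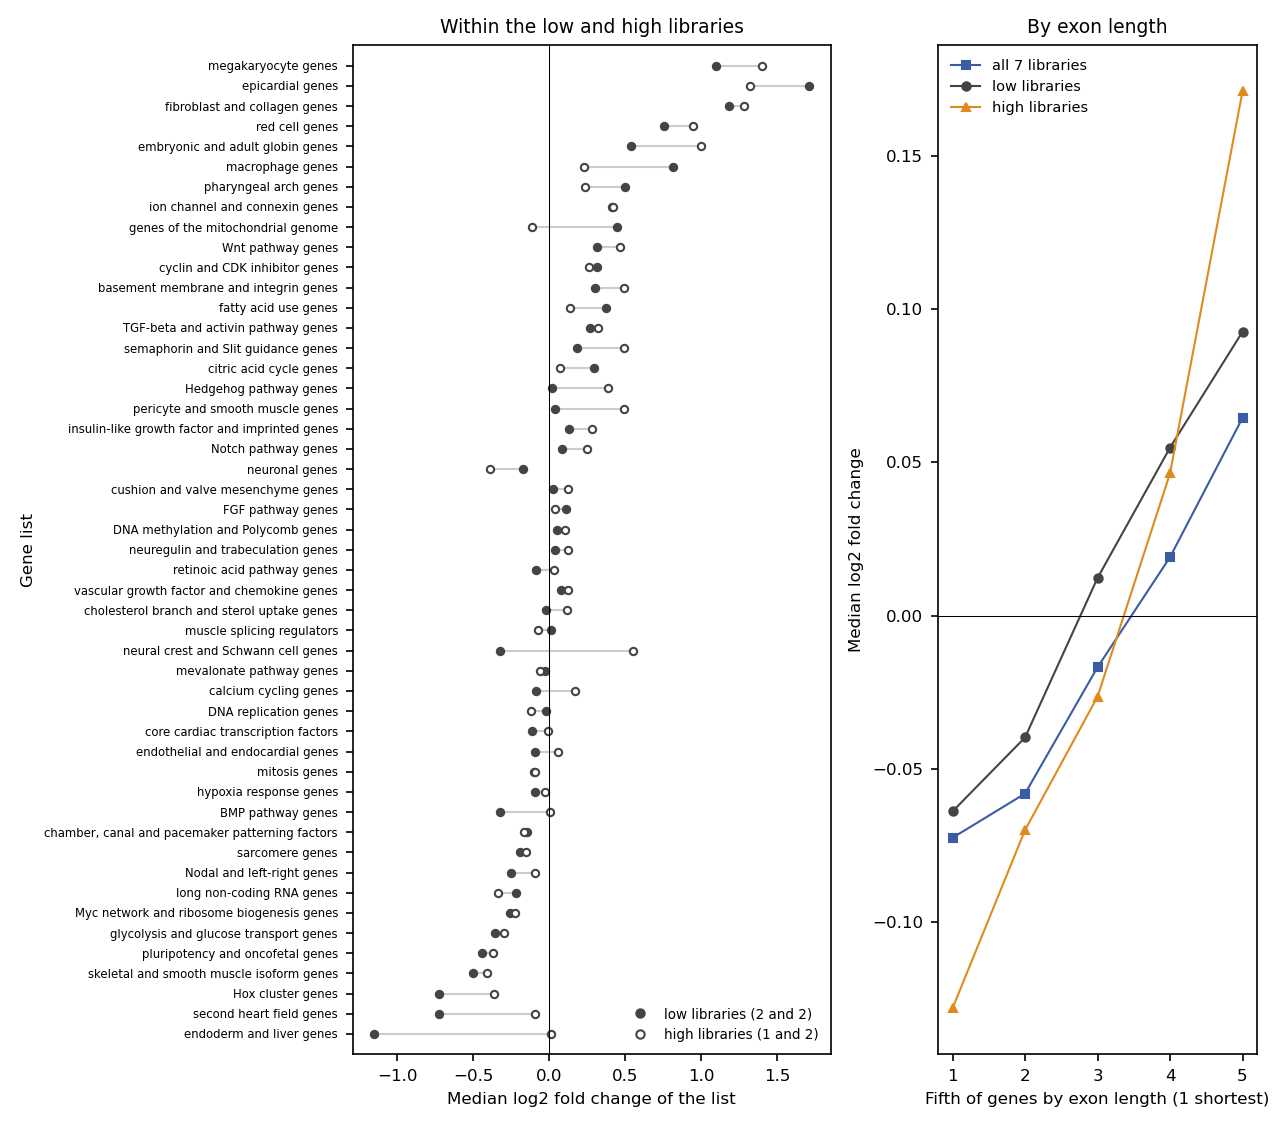
Left, median log2 fold change of each list within the low libraries (2 at E9.5, 2 at E10.5; filled) and within the high libraries (1 and 2; open). Right, median log2 fold change in 5 equal groups of genes by exon length, from -0.128 to 0.171 in the high libraries. Of 49 lists, 40 lie on the same side of 0 in both kinds of library, and the mitochondrial genome, BMP, calcium cycling and neural crest lists are among those that do not.

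A direct test of whether the change differed between low and high libraries passed for 32 of 18885 genes (0.169%), 25 of them with a smaller or more negative change in the high libraries, and 2548 genes had an unadjusted p below 0.05. The high E9.5 group is 1 library, so this difference cannot be told apart from E9.5 replicate 1 alone, and the spread comes from the other groups. Among the 32 were mt-Co2, Adgre1 and Emcn, which are list members, and Dld, which is in none of the lists. The smallest p was that of Gpm6a, a membrane glycoprotein of neurons that is also in the epicardial list. Another 4 genes known from neurons or glia were Dlg2, Mbp, Snap91 and Stmn4. These 5 and Dld were chosen after their values were seen. Gpm6a measured 18.9, 2.79 and 3.02 CPM at E9.5 and 11.02, 12.2, 15.6 and 21.7 CPM at E10.5. E9.5 replicate 1 was above both other E9.5 libraries, and the 2 high E10.5 libraries were above the 2 low ones. Emcn, a sialomucin of endocardium and veins, changed by 0.63 in the low and -0.22 in the high libraries. Dld, a subunit shared by mitochondrial dehydrogenases, changed by 0.70 in the low and 0.02 in the high libraries. Without a filter on low counts 545 genes passed. Within the 4 low libraries more of all genes were called, 19.3% of 18524 higher and 15.5% lower, and 46 of the 100 counts of list members (50 lists, 2 directions) were larger there by over 1.5 times and 5 smaller. The 12 that moved so and by at least 5 members are given here. Higher counts became 21 for red cell genes, 18 for citric acid cycle genes, 18 for fatty acid genes, 13 for the mitochondrial genome, 11 for insulin-like growth factor and imprinted genes, 9 for macrophage genes, 7 for BMP genes and 5 for DNA methylation and Polycomb genes. Lower counts became 15 for sarcomere genes, 14 for BMP genes and 7 for long non-coding RNA genes. The other 4 counts that were smaller there went from 2 to 1. Epicardial genes gave 5 higher there against 13, with a median log2 fold change of 1.71, and 12 with the kind of library as a term. Of the named genes that passed over all 7 libraries, 21 did not pass within the low libraries (adjusted p 0.0507 to 0.31). They were Ackr3, Aldh1a1, Ccnd1, Cemip, Cpt1a, Dubr, Erbb3, Fbln2, Gas1, Gstt3, Itga8, Lfng, Pln, Postn, Sema3d, Slit2, Tbx18, Tcf21, Ttr, Upk3b and Wt1. Within the high libraries, where E9.5 is 1 library, 95 did not pass (0.0504 to 0.971), among them Adm, Fgf8, Mvd, Myl7, Ncl, Nkx2-5, Slc2a3, Slit2, Tbx2 and Wnt2 of the genes whose libraries are printed above.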

How the data were processed

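Counts per gene were deposited by the authors as raw, unnormalized read counts, 1 file per library, with 49315 Ensembl identifiers. Per the submitters' processing notes, the tools were Trimmomatic 0.36, STAR 2.5.2b and featureCounts of Subread 1.5.2, with GRCm38 (mm10); strand use is not given in the sources used here. Types, exon lengths and coordinates come from GENCODE M21 (GRCm38), which held 49056 of the identifiers, and promoters from RefSeq (GRCm38.p6). Symbols come from a separate list of gene names, which gave one for 48970 identifiers.

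All 18 libraries were fitted together with 1 mean per stage in edgeR 4.0.16 (R 4.3.3), with TMM scaling, its default filter by expression and the quasi-likelihood F test, and E10.5 was set against E9.5. CPM use TMM-scaled library sizes. Standard errors are the size of the log2 fold change divided by the square root of F. Adjusted p-values are Benjamini-Hochberg over all 18885 genes. Alternatives used DESeq2 1.42.0 and limma 3.58.1. Low and high libraries were divided at 10 CPM of the 8 macrophage-type transcripts, a division drawn from the data and not recorded in the labels.

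Genes named over all genes were the 15 largest rises and falls of coding genes whose stages did not overlap, with a stage mean of 10 CPM or more and an adjusted p under 0.05. Mitochondrial, ribosomal protein, haemoglobin, Gm and Rik genes were left out. The 5 largest rises and falls by the same rule were taken from genes not typed as coding. Further genes are members of 50 lists, at least the called member with the smallest p in each direction, except that some members are not reported here. The members and lists were chosen with earlier results of these data known. On simulated counts with 50 genes changed per size (18482 genes), the test recovered 66% of 1.5-fold, 80% of 2-fold, 100% of 4-fold and 92% of 8-fold changes. Of the calls, 5.59% were false. The simulated counts held no difference between low and high libraries, so these rates may not carry over to the real libraries. Every pair of replicates differed by more than sampling noise, so none was merged.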

Additional observations from a re-analysis of the deposited data

Results flagged for a closer look

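Among 218 genes named, 7 had an E10.5 library far from the other 3 by Dixon's criterion (0.829 for 4 samples). Chance flags about 1 in 20 such groups. Afp was 3.36 CPM in E10.5 replicate 1 and at most 0.21 CPM in the others. Gp5 was 3.38 CPM in E10.5 replicate 4, against 2.03 to 2.12 CPM. Kcnj3 was 13.0 CPM in E10.5 replicate 3, against 16.3 to 16.7 CPM. Krt19 was 39.0 CPM in E10.5 replicate 1, against 45.0 to 45.8 CPM. Msx1 was 18.5 CPM in E10.5 replicate 3, against 13.8 to 14.6 CPM. Slc2a4 was 15.6 CPM in E10.5 replicate 1, against 16.8 to 16.9 CPM. Wif1 was 0.498 CPM in E10.5 replicate 4, against 0.287 to 0.313 CPM.

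For 9 named genes the change from E9.5 to E10.5 differed between high and low libraries by edgeR's test of that difference. The high E9.5 group is 1 library, so the difference cannot be told apart from E9.5 replicate 1 alone, and other groups supply the spread. The log2 change in the high libraries minus that in the low libraries was -7.34 for Adgre1 (adjusted p = 0.0185), which had no reads in either low E9.5 library, so its size depends on the prior count. Adgre1 is a macrophage gene, and the libraries were divided by macrophage-type transcripts. It was -1.99 for mt-Co2 (adjusted p = 0.0111), -0.838 for Emcn (adjusted p = 0.0348) and -0.654 for Dld (adjusted p = 0.0348). Among genes known from neurons or glia it was -2.02 for Gpm6a (adjusted p = 0.000945), -2.10 for Dlg2 (adjusted p = 0.00813), -1.19 for Mbp (adjusted p = 0.0185), -1.29 for Stmn4 (adjusted p = 0.0421) and -1.16 for Snap91 (adjusted p = 0.0348). Gpm6a is also a member of the epicardial list. The level of mt-Co2 was low, with means of 2.81 CPM at E9.5 and 4.76 CPM at E10.5, and nuclear copies of mitochondrial sequence make its counts uncertain.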

How the results depend on the processing

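Counts of changed genes kept within 1.5 times of 3446 with other scalings, filters, tools and models of all 7 libraries, between 2583 with only the 7 libraries of both stages and 4743 with the kind of library as a term. They were 6457 within the low libraries (3584 higher, 2873 lower) and 1215 within the high libraries (981 and 234), where E9.5 is 1 library. Both fits take only part of the 7 libraries, and the counts moved in opposite directions from 3446. The cause of these differences was not tested. Genes changed at least 2-fold numbered 826, 1279 within the low and 416 within the high libraries, and 309 with a minimum of 10 CPM in 3 libraries, which tests fewer genes. Leaving out 1 library gave between 2260 and 3839 genes changed, 1456 to 2381 higher, 804 to 1458 lower, and 606 to 1156 changed at least 2-fold, with the lowest of each without E9.5 replicate 3. The 32 genes whose change differed between low and high libraries became 545 without a filter. Of 199 named genes that passed, 86 kept their call and direction under each of the 19 alternatives that tested the gene. Alternatives whose filter left a gene out were not counted for it. Gpnmb, which did not pass, changed sign within the low libraries, to -3.12 on the log2 scale. It belongs to the 8 transcripts that divided the libraries. Those 8 together summed to at most 0.84 CPM in the low E9.5 and E10.5 libraries, so this fold is between levels near the floor. Within the high libraries Dnmt3b changed sign, to 0.0178 on that scale; the cause was not tested.

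Stages share replicate numbers, but the labels do not say that the numbers pair the samples. Deviations of same-numbered E9.5 and E10.5 libraries correlated at -0.604, 0.568 and -0.415, and only E9.5 replicate 2 correlated best with its own number. The signs of these correlations followed the low or high kind of library, so they cannot decide whether the numbers pair samples. With the replicate block, 3287 genes were changed (1909 higher, 1378 lower), 787 of them at least 2-fold.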

Other observations

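Gstt1, Ddt and Gstt3, neighbours on chromosome 10, fell, and Ggt5 in the same stretch rose. They were singled out after their values were seen, from the place of Gstt1 and Ddt among the largest falls. Gstt1 (chr10:75783813-75798584, GRCm38), a glutathione S-transferase, measured 8.87, 9.54 and 15.1 CPM at E9.5 and 2.61, 1.73, 2.702 and 3.23 CPM at E10.5. Ddt (chr10:75771230-75773414), D-dopachrome tautomerase, measured 35.5, 31.8 and 43.2 CPM at E9.5 and 10.8, 9.47, 14.01 and 13.8 CPM at E10.5. Both fell without overlap, by log2 fold changes of -2.12 ± 0.22 and -1.62 ± 0.14, and 30.0% of the exon length of Ddt overlaps another gene on the same strand. Gstt3, which lies between them, fell from 1.13 ± 0.173 CPM to 0.588 ± 0.125 CPM (adjusted p = 0.00887; 0.0595 without E9.5 replicate 3). In the same stretch Ggt5, a gamma-glutamyl transferase, rose from 0.853 ± 0.357 CPM to 3.77 ± 0.538 CPM (adjusted p = 6.28e-07), and Cabin1, which adjoins Ddt, was at 76.6 ± 17.7 CPM to 75.5 ± 6.197 CPM and did not pass (adjusted p = 0.941).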
